A study of Schizosaccharomyces pombe with 6 samples.

Results

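Mitochondrially encoded RNAs were examined in RNA pull-downs of *aal1*, a long non-coding RNA of the fission yeast *Schizosaccharomyces pombe*. They were taken as every row of the deposited table of counts whose identifier starts with SPMIT, which gave 37 of 7001 rows. Of these, 11 have numbered SPMIT identifiers, 1 is the non-coding RNA *rnpB* and 25 are tRNAs. None of the 37 identifiers names a ribosomal RNA, so the mitochondrial ribosomal RNAs were not analysed here. The rRNA rows SPRRNA.01 and SPRRNA.02, which matched no gene of the RefSeq annotation by identifier, lie outside this rule. Whether they come from mitochondria is not settled by the sources used here, and with 7521 and 2698 counts in wild-type replicate 1, against 1943 for all 37 members, they would change every mitochondrial share below if they did. Names were given in the sources used here for *atp9* (SPMIT.10), *cox3* (SPMIT.04), *var1* (SPMIT.08) and *rnpB*, and the other 8 numbered identifiers are given as they stand in the table.

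In ChIRP-seq, one RNA is captured from a sonicated lysate of formaldehyde-fixed cells with antisense probes on streptavidin beads, and the RNA that comes with it is sequenced. There were 2 libraries from each of 3 strains, all aged in the minimal medium EMMG to Day 6 of stationary phase. Wild-type (wt) cells were 972h-, *aal1∆* cells were 972h- with *aal1* deleted by CRISPR-Cas9, and *aal1-pOE* cells carried *aal1* on a plasmid with the thiamine-repressible P41nmt1 promoter in a 972h-/leu1-32 background. No pull-down from cells with an empty vector was used here, so in *aal1-pOE* the lncRNA, the plasmid and the background cannot be told apart. The *aal1∆* libraries show what probes and beads recover with no *aal1* present. No input RNA was used here either, so a larger amount of an RNA in the cells and a larger recovery of it cannot be told apart.

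The libraries held 89491 and 86614 counts for wild type, 91917 and 82299 for *aal1-pOE*, and 175263 and 40653 for *aal1∆*. *aal1* itself had no count in either *aal1∆* library, 28 and 147 counts in those of wild type and 9540 and 20832 in those of *aal1-pOE*, as the labels require. At these depths, 0 counts of an RNA allow a level of up to 17.1 counts per 1000000 counts of the library (CPM) in the deepest library and 73.8 CPM in the shallowest, from a limit of 3 counts. Replicates differed by more than sampling noise over all RNAs, and the chi-square per degree of freedom was 9.92 for *aal1-pOE*, 10.9 for *aal1∆* and 12.7 for wild type. Over the members with at least 10 counts in a strain, *aal1-pOE* replicates differed most. There the chi-square was 109 on 6 degrees of freedom for *aal1-pOE*, 41.5 on 5 for wild type and 20.3 on 5 for *aal1∆*. The methods describe the replicates as grown and processed independently.

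The mitochondrial genome of *S. pombe* encodes a few hydrophobic subunits of the respiratory chain and of ATP synthase, a protein and the RNAs of the mitochondrial ribosome, a set of tRNAs and the RNA of the mitochondrial RNase P. It is transcribed inside the organelle into long precursors, from which the tRNAs are cut out and so free the RNAs that lie between them. The products work together with many proteins that are encoded in the nucleus and imported. In the RefSeq annotation of the assembly ASM294v3, the mitochondrial genome is 19433 bp long, has a GC content of 30.1% and holds 39 genes, all on the plus strand. They are 11 protein-coding genes, 25 tRNAs of 69 to 86 nt, 2 ribosomal RNAs and the RNase P RNA, and 3 of the protein-coding genes are reading frames inside introns of other genes. The 25 tRNA identifiers of the table match the annotated tRNAs in number for each of 20 amino acids.

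The coding sequence of *atp9* is shown because *atp9* was the only mitochondrially encoded RNA that passed edgeR's test in a comparison of all 6 libraries. It lies at MT:17808-18032 on the plus strand, is 225 nt long and has a GC content of 38.2%. The tRNA gene trnS(uga) ends 89 nt before it and trnA(ugc) starts 26 nt after it, so the coding exon lies in a stretch bounded by tRNAs. Capitals mark the longest run that is complementary to *aal1*, written 5′ to 3′:

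atp9: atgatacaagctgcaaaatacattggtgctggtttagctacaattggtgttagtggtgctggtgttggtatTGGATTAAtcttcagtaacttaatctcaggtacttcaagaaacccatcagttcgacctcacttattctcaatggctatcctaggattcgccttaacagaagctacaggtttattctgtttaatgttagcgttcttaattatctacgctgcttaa

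That run is 8 nt long, begins at position 72 of the coding sequence and is the reverse complement of nt 569 to 576 of the 783 nt *aal1*. The longest run identical to *aal1* is also 8 nt long. Among the first 225 bases of 5051 nuclear coding sequences, 96.4% hold a complementary run at least as long and 96.5% an identical run at least as long, and the median longest run is 9 nt for both. The run in *atp9* was thus no longer than in most coding sequences. The longest complementary runs in the other named members were 10 nt in *cox3*, 10 nt in *var1* and 11 nt in *rnpB*. These genes are 810, 684 and 274 nt long, with GC contents of 30.1%, 22.5% and 24.8%. No background was computed for such lengths and GC contents, so the median of 9 nt is no measure for them.

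Together, the 37 members had 9518 counts. They made up 2.17% and 1.54% of the counts for wild type, 3.05% and 1.24% for *aal1-pOE*, and 1.01% and 1.61% for *aal1∆*. The Wilson 95% intervals of these shares were 2.08% to 2.27% and 1.46% to 1.62%, 2.94% to 3.16% and 1.17% to 1.32%, and 0.962% to 1.06% and 1.49% to 1.73%, in the same order, and they cover counting error only. The means were 1.85% ± 0.449 (SD, n = 2), 2.15% ± 1.28 (SD, n = 2) and 1.31% ± 0.423 (SD, n = 2), and each pair of strains overlapped. Rows named as rRNA outside the SPMIT set took between 25.7% and 54.4% of a library and *aal1* took 10.4% and 25.3% of the *aal1-pOE* libraries, which lowers every other share there. With these rRNA rows (SPRRNA.01 and SPRRNA.02 among them), *aal1* and its antisense RNA SPNCRNA.401 left out of the total, the share was 3.14% and 3.38% for wild type, 5.23% and 2.59% for *aal1-pOE*, and 1.81% and 2.73% for *aal1∆*. On that total, wild type did not overlap *aal1∆* and lay above it, while the *aal1-pOE* libraries lay on both sides of wild type and of the upper *aal1∆* library.

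Few members carried this RNA. SPMIT.01 alone held 49.2% of the members' counts, SPMIT.11 24.3%, *cox3* 10.7%, *atp9* 9.15%, SPMIT.05 5.03% and SPMIT.07 0.988%. These 6 held 99.3% and were the only members that passed the filter on low counts, among 1329 RNAs tested. Of the other 31 members, 19 had 0 counts in every library, 10 had 1 to 9 counts over the 6 libraries, and *var1* and SPMIT.09 had more. The levels below are CPM after TMM scaling, called normalised CPM, and fold changes with their standard errors and adjusted p come from edgeR's quasi-likelihood test over all 1329 RNAs.

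*atp9* encodes a small membrane subunit of ATP synthase, many copies of which form the ring that turns as protons cross the inner membrane. Its counts were 68 and 45 for *aal1∆*, 142 and 167 for wild type, and 303 and 146 for *aal1-pOE*. This is 433 and 1100 normalised CPM for *aal1∆*, 1344 and 2594 for wild type, and 3498 and 2349 for *aal1-pOE*. All 4 libraries with *aal1* lay above both *aal1∆* libraries, and the wild-type and *aal1-pOE* libraries overlapped. The nearest values across that gap were 1344 in wild-type replicate 1 and 1100 in *aal1∆* replicate 2, with exact Poisson 95% intervals of 1132 to 1585 and 802 to 1472, which overlap. In *aal1-pOE*, *atp9* was higher than in *aal1∆* by 2.0 on the log2 scale (standard error 0.430), a fold change of 4.01, with an adjusted p of 0.00372 (edgeR), the fifth smallest p of all RNAs tested. In wild type the log2 fold change was 1.42 (standard error 0.427), 2.68-fold, and did not pass (unadjusted p = 0.00135, adjusted p = 0.449, edgeR). The difference between *aal1-pOE* and wild type was 0.58 (standard error 0.403, adjusted p = 0.995, edgeR), so the comparisons with *aal1∆*, which share its libraries, were not shown to differ.

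The *atp9* call depended on single libraries and on the tool. Without *aal1-pOE* replicate 1 the log2 fold change against *aal1∆* was 1.72 (adjusted p = 0.190, edgeR), and without *aal1∆* replicate 1 it was 1.50 (adjusted p = 0.338, edgeR), where the median of all RNAs was 0.29. Without *aal1∆* replicate 2, which holds the fewest counts, it was 2.72 (adjusted p = 0.00103, edgeR), and *atp9* then also passed in wild type, with 2.14 (adjusted p = 0.0390, edgeR). In wild type against *aal1∆* it was 0.88 (adjusted p = 0.996, edgeR) without wild-type replicate 2 and 0.94 (adjusted p = 0.718, edgeR) without *aal1∆* replicate 1, where the median of all RNAs was 0.27. DESeq2 gave 1.99 with an adjusted p of 0.210, and scaling by library size alone gave 1.83 with an adjusted p of 0.0651 from edgeR.

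**Figure D1:**
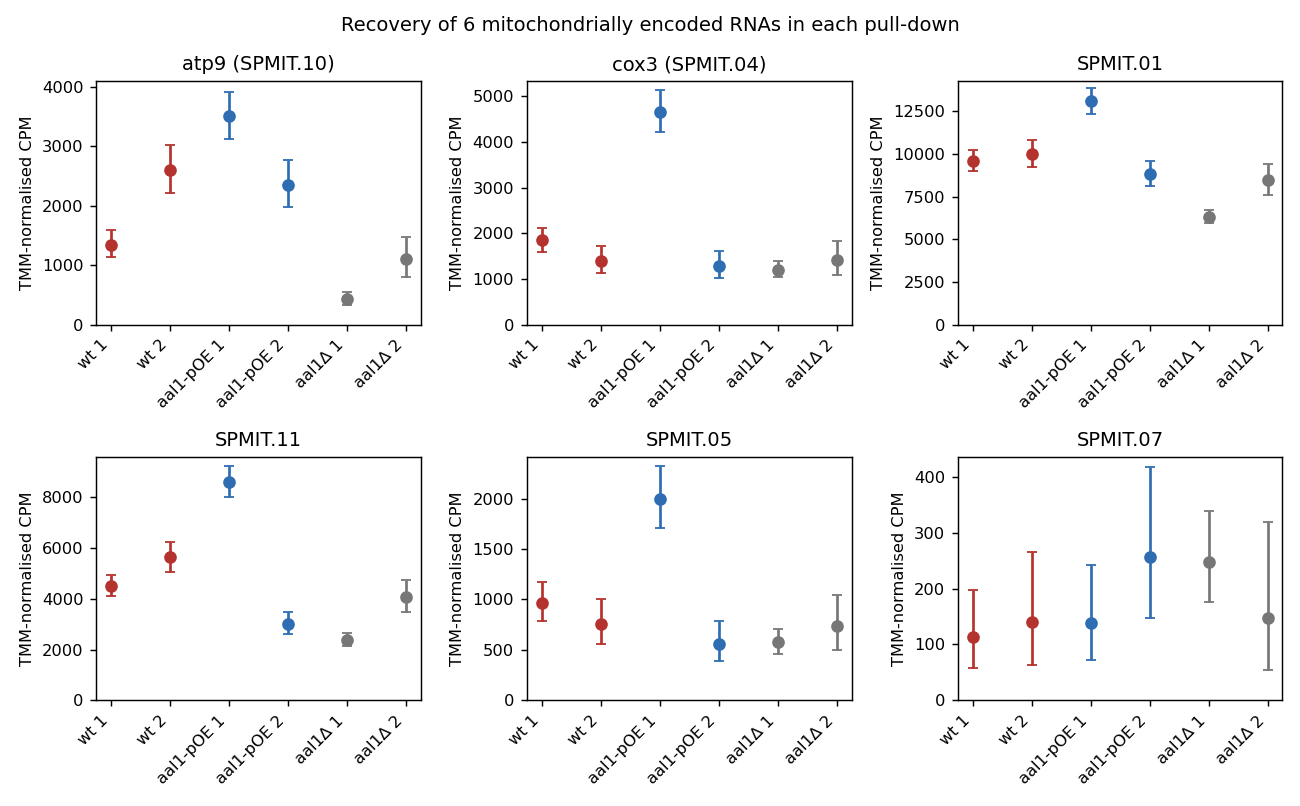
Normalised CPM (vertical axes, from 0, with a separate scale for each RNA) of the 6 tested mitochondrially encoded RNAs in each of the 6 libraries (horizontal axes; red wild type, blue aal1-pOE, grey aal1∆). Points are single libraries and bars are exact Poisson 95% intervals, which cover counting error only; for atp9 both aal1∆ libraries, at 433 and 1100, lie below the other 4, and aal1-pOE replicate 1 is the highest library for atp9, cox3, SPMIT.01, SPMIT.11 and SPMIT.05.

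*cox3* encodes a core subunit of cytochrome c oxidase (complex IV), which passes electrons to oxygen. It lies at MT:8961-9770 on the plus strand, is 810 nt long, and is followed after 48 nt by trnR(ucu). Its counts were 189 and 58 for *aal1∆*, 195 and 90 for wild type, and 403 and 80 for *aal1-pOE*, or 1204 and 1418, 1846 and 1398, and 4653 and 1287 normalised CPM. *aal1-pOE* replicate 1 was 3.61 times as high as replicate 2, and that second library lay between the *aal1∆* libraries. The log2 fold change was 1.19 (standard error 0.417, unadjusted p = 0.00546, adjusted p = 0.819, edgeR) in *aal1-pOE* against *aal1∆*, 0.32 (standard error 0.416) in wild type against *aal1∆*, and 0.87 (standard error 0.410) in *aal1-pOE* against wild type. Without *aal1-pOE* replicate 1 the first of these was 0.0035, and without replicate 2 it was 1.90 and passed (adjusted p = 0.0164, edgeR).

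SPMIT.01 was the most abundant member by counts, with 994 and 347 for *aal1∆*, 1014 and 644 for wild type, and 1133 and 548 for *aal1-pOE*. In normalised CPM this is 6330 and 8484, 9601 and 10002, and 13081 and 8818. The *aal1∆* libraries were the lowest, by a small margin, since *aal1∆* replicate 2 and *aal1-pOE* replicate 2 were at 8484 and 8818. Against *aal1∆* the log2 fold change was 0.41 (standard error 0.450) for wild type and 0.57 (standard error 0.451) for *aal1-pOE*, neither of which passed, and it was 0.16 (standard error 0.448) in *aal1-pOE* against wild type.

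The counts of SPMIT.11 were 375 and 167 for *aal1∆*, 477 and 363 for wild type, and 745 and 187 for *aal1-pOE*. Its normalised CPM were 2388 and 4083, 4516 and 5638, and 8602 and 3009, in the same order. The wild-type libraries lay above the *aal1∆* libraries and the *aal1-pOE* libraries spanned both strains. Against *aal1∆* the log2 fold change was 0.66 (standard error 0.421) for wild type and 0.86 (standard error 0.422, unadjusted p = 0.0457, adjusted p = 0.906, edgeR) for *aal1-pOE*, and it was 0.20 (standard error 0.416) in *aal1-pOE* against wild type. Without *aal1-pOE* replicate 1 the second of these was -0.06.

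The counts of SPMIT.05 were 90 and 30 for *aal1∆*, 102 and 49 for wild type, and 173 and 35 for *aal1-pOE*, or 573 and 733, 966 and 761, and 1997 and 563 normalised CPM. As for *cox3*, *aal1-pOE* replicate 1 was over 3-fold higher than replicate 2, which here was the lowest library of all. Against *aal1∆* the log2 fold change was 0.43 (standard error 0.441) for wild type and 1.0 (standard error 0.439, unadjusted p = 0.0253, adjusted p = 0.819, edgeR) for *aal1-pOE*, and it was 0.58 (standard error 0.428) in *aal1-pOE* against wild type. Without *aal1-pOE* replicate 1 the second was -0.17.

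SPMIT.07 was the scarcest tested member, with counts of 39 and 6 for *aal1∆*, 12 and 9 for wild type, and 12 and 16 for *aal1-pOE*. Its normalised CPM were 248 and 147, 114 and 140, and 139 and 257. It was the only tested member lower in both wild-type libraries than in both *aal1∆* libraries, at 140 against 147 for the nearest values, and its log2 fold change was -0.69 (standard error 0.885). The other changes were -0.06 (standard error 0.864) in *aal1-pOE* against *aal1∆* and 0.63 (standard error 0.892) in *aal1-pOE* against wild type, all with an adjusted p of 0.995 or more from edgeR.

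Of the 6 tested members, 1 was called higher and 0 lower in *aal1-pOE* against *aal1∆*, beside 0.301% called higher and 0.0752% called lower of all RNAs tested, 0.376% in either direction. The single call is *atp9*. None was called in wild type against *aal1∆*, where 0.150% of all RNAs were called, nor in *aal1-pOE* against wild type, where 0.226% were called. At an unadjusted p under 0.05 from edgeR, 4 members were higher in *aal1-pOE* against *aal1∆* (2.26% of all RNAs), 1 in wild type against *aal1∆* (1.13%) and 1 in *aal1-pOE* against wild type (1.73%), and 0 were lower in any of them, beside 3.16%, 1.35% and 2.48% of all RNAs. DESeq2 called 0 members in each comparison. Of the 4 members in *aal1-pOE*, *cox3*, SPMIT.05 and SPMIT.11 had log2 fold changes of at most 0.0035 without *aal1-pOE* replicate 1, as the plot of fold changes with each library left out shows.

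The median log2 fold change of the 6 tested members was 0.93 in *aal1-pOE* against *aal1∆*, 0.42 in wild type against *aal1∆* and 0.58 in *aal1-pOE* against wild type, beside medians over all RNAs of 0.01, 0.00 and 0.03. In wild type against *aal1∆*, 4 members lay higher without overlap (14.3% of all RNAs did) and 1 lay lower (16.0%). In *aal1-pOE* against *aal1∆*, 2 members, *atp9* and SPMIT.01, lay higher without overlap (17.1% of all RNAs), and in *aal1-pOE* against wild type all 6 overlapped. These members lie on one genome and can share precursor RNAs, so they are not independent of each other.

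**Figure D2:**
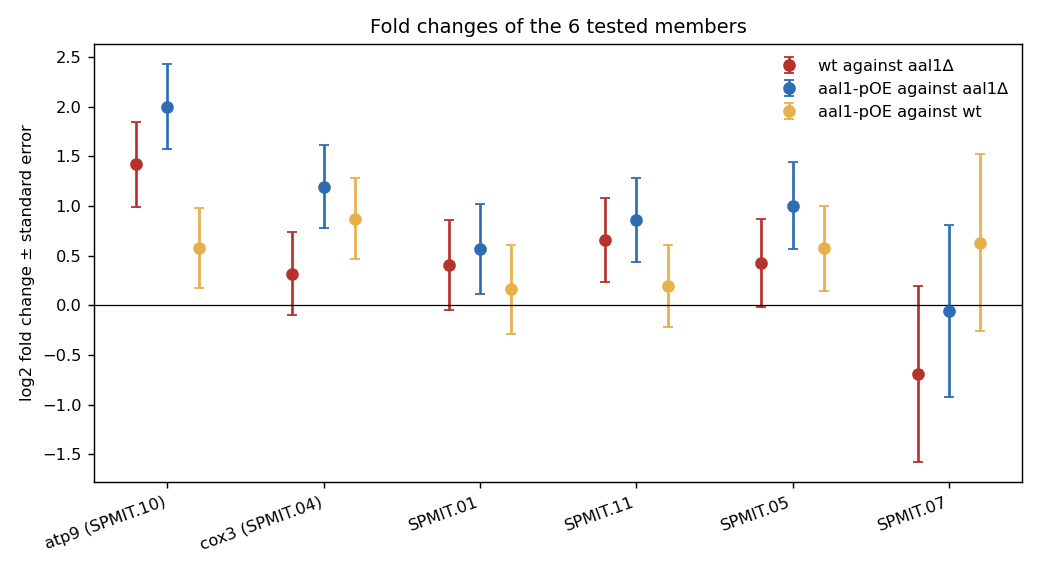
Log2 fold changes (vertical axis) of the 6 tested mitochondrially encoded RNAs (horizontal axis) in wild type against aal1∆ (red), aal1-pOE against aal1∆ (blue) and aal1-pOE against wild type (yellow), from edgeR. Bars are standard errors; atp9 has the highest value in both comparisons with aal1∆, at 2.0 and 1.42, and SPMIT.07 has the widest bars.

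**Figure D3:**
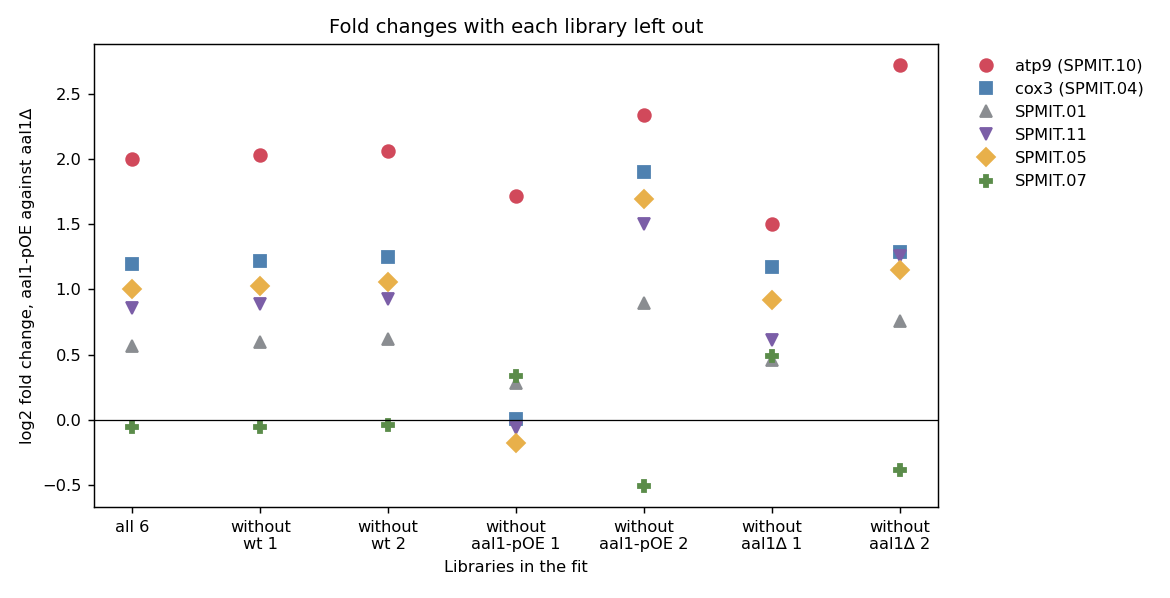
Log2 fold changes in aal1-pOE against aal1∆ (vertical axis) of the same 6 RNAs, with all 6 libraries in the fit and with each library left out in turn (horizontal axis). Without aal1-pOE replicate 1, cox3, SPMIT.11 and SPMIT.05 lie at 0.0035, -0.06 and -0.17, while atp9 remains the highest at 1.72.

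The make-up of the mitochondrial RNA does not depend on how libraries are scaled to each other. *atp9* was 7.31% and 12.6% of the mitochondrially encoded counts for wild type, 10.8% and 14.3% for *aal1-pOE*, and 3.85% and 6.89% for *aal1∆*. Its mean share was 5.37% ± 2.15 (SD, n = 2) for *aal1∆*, 9.93% ± 3.71 (SD, n = 2) for wild type and 12.5% ± 2.45 (SD, n = 2) for *aal1-pOE*. Both *aal1∆* libraries were the lowest, by 6.89% against 7.31% for the nearest values. These shares come from the same counts as the edgeR call and are not a separate observation. The p of an exact permutation test, two-sided, was 0.333 for wild type and for *aal1-pOE* against *aal1∆*, and 0.667 for *aal1-pOE* against wild type. The lowest p possible with 2 libraries a strain is 0.333, so this test could not pass and no conclusion is drawn from it. Among the other tested members, SPMIT.01 ranged from 40.4% of the mitochondrial counts in *aal1-pOE* replicate 1 to 56.3% in *aal1∆* replicate 1, SPMIT.11 from 18.3% to 27.3%, *cox3* from 6.77% to 14.4%, SPMIT.05 from 3.42% to 6.17% and SPMIT.07 from 0.428% to 2.21%. The highest share was 1.39 times the lowest for SPMIT.01, 1.49 times for SPMIT.11, 2.12 times for *cox3*, 3.71 times for *atp9* and 5.16 times for SPMIT.07, which has few counts.

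**Figure D4:**
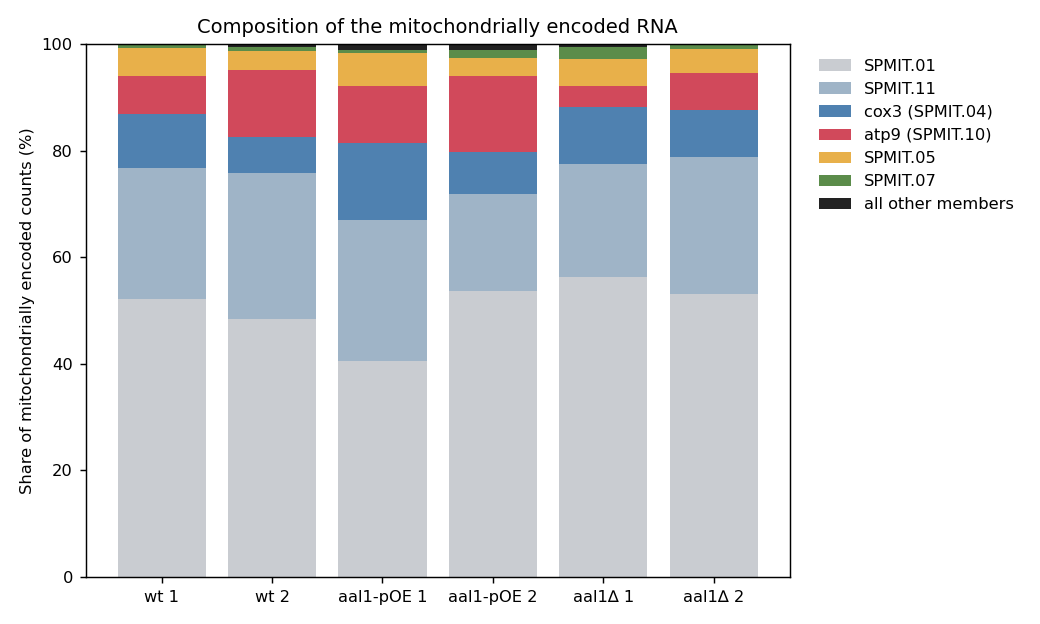
Share of each tested member, and of all other members together, in the mitochondrially encoded counts of each library (vertical axis, percent; bars are single libraries). atp9 (red) takes 3.85% and 6.89% in the aal1∆ libraries and 7.31% to 14.3% in the other 4.

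Pairs of members can be set against each other within a library. Of 15 ratios among the 6 tested members, the narrowest was that of SPMIT.05 to *cox3*, between 0.429 and 0.544 in all 6 libraries. SPMIT.05 and *cox3* thus kept nearly the same proportion in libraries where their own levels differed over 3-fold. The ratio of *atp9* to SPMIT.01 was 0.140 and 0.259 for wild type, 0.267 and 0.266 for *aal1-pOE*, and 0.0684 and 0.130 for *aal1∆*, and that of *atp9* to *cox3* was 0.728 and 1.86, 0.752 and 1.83, and 0.360 and 0.776. The first ratio set both *aal1∆* libraries below all others. In the second, *aal1∆* replicate 2, at 0.776, lay above replicate 1 of each other strain. Between libraries of the same replicate number, the second ratio was lowest in *aal1∆*, at 0.360 against 0.728 and 0.752, and at 0.776 against 1.86 and 1.83. The methods describe the replicates as grown and processed independently, and the main fit did not pair them. Matching by replicate number was made after the ratios were seen, so no conclusion on the strains is drawn from it. Per length of coding sequence, *atp9* had 7052 and 8569 CPM per kb for wild type, 14651 and 7885 for *aal1-pOE* and 1724 and 4920 for *aal1∆*, on the library totals without TMM. *cox3* had 2690 and 1283, 5413 and 1200, and 1331 and 1761 CPM per kb in the same order. The level of *atp9* per kb was thus above that of *cox3* in every library, by 1.30 times in *aal1∆* replicate 1 and by up to 6.68 times in wild-type replicate 2.

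*var1*, listed as *rps3* by RefSeq, encodes a protein of the small subunit of the mitochondrial ribosome and lies at MT:15956-16639 on the plus strand. Its counts were 3 and 0 for *aal1∆*, 1 and 1 for wild type, and 21 and 4 for *aal1-pOE*, and it did not pass the filter. SPMIT.09 had 3 and 0, 0 and 1, and 4 and 5 counts in the same order. With the filter relaxed to 10 counts over all libraries, the log2 fold change in *aal1-pOE* against *aal1∆* was 3.43 (standard error 1.82, adjusted p = 0.994, edgeR) for *var1* and 2.17 (standard error 2.26, adjusted p = 0.994, edgeR) for SPMIT.09. Both *var1* and SPMIT.09 reach 10 counts only through the *aal1-pOE* libraries. The relaxed filter thus favours a higher value there, and no conclusion is drawn from these fold changes. For *var1*, most counts came from *aal1-pOE* replicate 1, the library in which every tested member but SPMIT.07 was also highest.

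The remaining members were at or near the limit of detection. *rnpB*, the RNA of the enzyme that cuts the 5′ ends of mitochondrial tRNAs, lies at MT:18132-18405 directly between trnA(ugc) and trnE(uuc), and had 1 count in wild-type replicate 2 and 3 for *aal1-pOE* replicate 1. SPMIT.02, SPMIT.03 and SPMIT.06 had 0 counts in all libraries. Of the 25 tRNAs, 16 had 0 counts in all libraries and 9 had between 1 and 4 counts in all, which sum to 18 counts with at most 3 in a library. The number of tRNAs with a count was 0 and 3 for wild type, 3 and 2 for *aal1-pOE* and 4 and 0 for *aal1∆*. A difference between strains was not detectable for these members at this depth and with this way of counting. By the counting default, a read that overlaps 2 genes is left uncounted. This can lower nested genes and abutting ones such as *rnpB* at any depth, and its part in the counts of 0 was not tested. The annotated tRNA genes are shorter than or close to the read length, and the part this plays in their low counts was not tested.

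Lists of nuclear genes whose products work with the mitochondrially encoded ones each made up a smaller share of every library than the mitochondrially encoded RNAs did. Listed nuclear subunits of ATP synthase (complex V), with 14 in the table and 6 tested, made up between 0.150% and 0.244% of a library. None of the 6 was called in any comparison. Their median log2 fold changes were -0.03 in wild type and 0.28 in *aal1-pOE* against *aal1∆*, and 0.35 in *aal1-pOE* against wild type. At an unadjusted p under 0.05 from edgeR, 1 of the 6 was higher in *aal1-pOE* against *aal1∆*, beside 2.26% of all RNAs, and 0 were lower. The subunit with the most counts, *atp2*, the catalytic beta subunit, gave counts of 162 and 12 for *aal1∆*, 83 and 59 for wild type, and 43 and 87 for *aal1-pOE*, with log2 fold changes against *aal1∆* of 0.27 (standard error 0.457) and 0.42 (standard error 0.458). *atp1*, the alpha subunit, had 76 and 22, 32 and 35, and 39 and 42 counts, with -0.28 (standard error 0.520) and 0.14 (standard error 0.515).

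Of 8 nuclear subunits of complex IV in the table, only *cox5* was tested, with counts of 11 and 5 for *aal1∆*, 9 and 5 for wild type, and 15 and 7 for *aal1-pOE*, and its log2 fold changes of -0.17 (standard error 1.36) and 0.63 (standard error 1.33) against *aal1∆* did not pass. Of 10 subunits of complex III, the cytochrome bc1 complex, 6 were tested, none was called and the medians were -0.07 and -0.30 against *aal1∆*. Its subunit with the most counts, *qcr1*, had 0.11 (standard error 0.709) for wild type and -0.31 (standard error 0.717) for *aal1-pOE*. The next, *rip1*, had 0.83 (standard error 0.795) and 0.19 (standard error 0.813). Of 22 factors of mitochondrial RNA synthesis, processing and translation, 6 were tested and none was called, with medians of -0.47 and 0.31 against *aal1∆*. Their member with the most counts, *ppr5*, encodes a protein with PPR repeats. It gave counts of 227 and 60 for *aal1∆*, 118 and 110 for wild type, and 57 and 90 for *aal1-pOE*. Its log2 fold changes were -0.05 (standard error 0.403) and -0.48 (standard error 0.408). For the next, *rpo41*, they were 1.10 (standard error 1.10) and 0.53 (standard error 1.12), from 23 and 0, 8 and 20, and 7 and 11 counts. Of 76 mitochondrial ribosomal proteins, 1 was tested and was not called, *mrp51*, with 17 and 0, 27 and 9, and 8 and 15 counts. Its log2 fold changes against *aal1∆* were 1.56 (standard error 1.06) for wild type and 1.28 (standard error 1.07) for *aal1-pOE*. For *atp9* in wild type the value was 1.42, with a smaller standard error of 0.427.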

How the data were processed

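The 2 ChIRP-seq libraries per strain were taken from the deposited table of raw counts. Per the methods and the submitters' processing notes, the authors made directional libraries from DNase-treated RNA, sequenced read pairs on a MiSeq, trimmed read starts, mapped them with HISAT2 2.2.1 in forward-reverse mode and obtained these counts per gene with HTSeq 0.12.3 in reverse mode. Of the genome build, the sources used here give no name. A read that overlaps 2 genes is left uncounted by HTSeq's default, which can lower nested and abutting mitochondrial genes. No collapsing of duplicate reads is described, so a molecule can count more than once.

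Counts were normalised by TMM with library sizes over the RNAs kept by filterByExpr (1329), and tested with edgeR 4.0.16 (glmQLFit, glmQLFTest; R 4.3.3, limma 3.58.1) on all 6 libraries in one fit, with Benjamini-Hochberg adjustment over all RNAs at a threshold of 0.05. The common dispersion was 0.243, and 3 degrees of freedom were left for each RNA. The test added 70.4 prior degrees of freedom from the spread of all RNAs. Each p from edgeR, that of *atp9* included, thus rests mostly on that shared spread. A standard error is the log2 fold change over the square root of F. On simulated counts of 1329 RNAs, *aal1-pOE* against *aal1∆*, 94 of 200 changed RNAs were called, with 2 false calls and 0 in the wrong direction. The changes were 4-fold or 8-fold, up or down, and 35 and 59 of them were called. Smaller changes were not simulated. The simulated spread followed the fitted trend alone, which favours a low number of false calls. Members, nuclear lists and the naming rule were chosen with earlier results of these data known. The rule named every tested member, those others with at least 10 counts, the strain check *aal1*, and up to 2 members of each nuclear list with the most counts. Alternatives were other filters and scalings, DESeq2 1.42.0, a block for the replicate number, a fit of the compared strains alone, and leaving out each library with the filter applied anew. The main fit did not pair the samples by replicate number. Names, coordinates and sequences came from RefSeq (ASM294v3), which matched 6852 of 6964 rows outside the mitochondrial set. Of the 12 mitochondrial members other than tRNAs, 4 were matched by name. Figures were drawn with matplotlib 3.10.9 and intervals computed with scipy 1.17.1 in Python 3.11.15.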

Additional observations from a re-analysis of the deposited data

How the results depend on the processing

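The number of mitochondrially encoded RNAs called in *aal1-pOE* against *aal1∆* was 1, and fell to 0 with scaling by library size only, with scaling to the summed mitochondrial counts and with DESeq2, and ranged from 0 to 2 with each library left out. In wild type against *aal1∆* it was 0, and 0 to 1 with each library left out, where the call without *aal1∆* replicate 2 was *atp9*. In *aal1-pOE* against wild type it was 0 under every alternative run. The adjusted p of *atp9* in *aal1-pOE* against *aal1∆* lay between 0.000475 and 0.645 over 15 alternatives and passed in 10 of them. These alternatives include leaving out a wild-type library, which is not part of this comparison. That changes the result only through the filter, the scaling and the shared spread, so the 15 are not equal checks. With the replicate number as a block, *atp9* had 2.14 (adjusted p = 0.00396, edgeR) and the counts of calls were 0, 1 and 0. Over the 1329 RNAs tested, same-numbered libraries deviated with correlations of 0.047, -0.052 and 0.089. Single members could still move together, and the ratio of *atp9* to *cox3* was higher in replicate 2 than in replicate 1 of every strain. That of SPMIT.11 to SPMIT.01 rose in wild type and *aal1∆* and fell in *aal1-pOE*. Whether the replicate number stands for a shared step was not tested.

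Scaling to the summed mitochondrial counts moves the median of all RNAs to -0.57 in wild type and -0.75 in *aal1-pOE* against *aal1∆*, and to -0.17 in *aal1-pOE* against wild type, and library size only moves the latter 2 to -0.14 and -0.16. On the mitochondrial sum, *atp9* had a log2 fold change of 1.24 (adjusted p = 0.645, edgeR) in *aal1-pOE* against *aal1∆*, 1.99 above the median of all RNAs. There the sign turned in wild type against *aal1∆* for SPMIT.01 (-0.12), *cox3* (SPMIT.04, -0.22) and SPMIT.05 (-0.12), in *aal1-pOE* against *aal1∆* for SPMIT.01 (-0.22), SPMIT.05 (-0.0059) and SPMIT.11 (-0.058), and in *aal1-pOE* against wild type for SPMIT.01 (-0.10) and SPMIT.11 (-0.21). With each library left out, values in *aal1-pOE* against *aal1∆* ranged from -0.17 to 1.69 for SPMIT.05, from -0.51 to 0.49 for SPMIT.07 and from -0.061 to 1.50 for SPMIT.11, and in *aal1-pOE* against wild type from -0.19 to 0.46 for SPMIT.01, from -0.37 to 1.56 for *cox3*, from -0.65 to 1.25 for SPMIT.05 and from -0.79 to 0.80 for SPMIT.11. Of 270 values over 18 member results, 253 kept their direction. That tally, too, includes leaving out libraries of the strain that is not compared. The share of all counts from mitochondrially encoded RNAs, with 1 library of a strain left out, was 1.01% to 1.61% for *aal1∆*, 1.54% to 2.17% for wild type and 1.24% to 3.05% for *aal1-pOE*. Without rRNA, *aal1* and SPNCRNA.401 in the total, the mean share over both libraries was 2.27%, 3.26% and 3.91%. The causes were not tested. With 2 libraries per strain, a left-out library leaves 1, which is assumed to vary like the others, and the filter then kept 1758 to 1934 RNAs, and the 40653 counts of *aal1∆* replicate 2 limit every comparison with that strain.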
